A study of Mus musculus with 24 samples.

Results

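Transcripts of 8 genes of the thyroid hormone axis were followed in 4 tissues (liver, brain, heart and skeletal muscle) from Rap1 knockin (KI) and wild-type (WT) mice. The genes were Hr, Thra, Thrb, Dio1, Dio2, Thrsp, Klf9 and Me1, chosen by name from 21368 genes with a symbol, because Hr was high in KI liver in an earlier reading of these data. They were measured by 14 probes: 3 each for Dio1 and Me1, 2 each for Thra and Thrb, and 1 each for Hr, Dio2, Thrsp and Klf9. The question was whether thyroid-responsive genes followed Hr in liver. Since liver values chose the genes, the liver difference between genotypes is given below without a test, and tests were kept to the other tissues and to differences between tissues.

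The KI mice carried a Rap1 (gene symbol Terf2ip) allele made with CRISPR/Cas9, in which an isoleucine of RAP1, a protein of the telomere-capping shelterin complex, is replaced by arginine so that RAP1 no longer binds TRF2. The line was backcrossed to C57BL/6N mice (C57BL6 in the sample labels), and per the study's description the KI mice were homozygous. There were 3 KI females (called A, B and C) and 3 WT females (D, E and F), each giving all 4 tissues, for 24 arrays in 8 groups of 3. Mice C and F were 14 months old and the others 15 months old. The time of day of collection and the feeding state are not given in the sources used here.

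Thyroxine is converted to the active hormone T3 by the deiodinase enzymes DIO1 and DIO2, and is inactivated by DIO3. T3 binds nuclear receptors encoded by Thra and Thrb, which pair with RXR receptors on DNA and recruit corepressors without hormone and coactivators with it. Hr encodes hairless, a corepressor of these receptors and itself a T3-induced gene in brain, while Thrsp and Me1 are classical T3-induced genes of hepatic fat synthesis, Dio1 is T3-induced in liver, and Klf9 is a T3-induced transcription factor gene in several tissues.

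Each level is a log2 processed signal after subtraction of its array's 75th percentile, so that 0 is that percentile, a step of 1 is a doubling, and levels of different probes cannot be compared with each other. A gene counted as measured in a tissue if KI or WT mice, or both, had the probe well above background in all 3 samples. Terf2ip, whose transcript a point mutation need not change, was 0.33 ± 0.32 in KI and 0.66 ± 0.24 in WT liver (SD, n = 3 each) and overlapped between the genotypes in every tissue. Defining transcripts fitted the tissue labels: in WT mice Alb averaged 9.51 in liver, Nefl 5.53 in brain, Myh6 8.83 in heart and Myh4 9.70 in muscle. Single libraries also had high levels of transcripts typical of another tissue, whose source was not tested. Alb was 6.53 in the brain of KI mouse C, Myh4 was 1.45 in the liver of KI mouse C, and in the muscle of KI mouse B mammary markers summed to 7.64 times the 75th percentile (0.20 to 0.25 in the other 5 muscles) and Krt14, a keratin gene of skin and mammary epithelium, was -0.34 (at most -2.85 in the others). Of the 7 mammary markers, 1 counted as measured in muscle, and Csn3 and Wap did not clearly exceed background in any muscle. In bulk tissue, fewer cells of a type and less RNA per cell cannot be told apart.

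**Figure D1:**
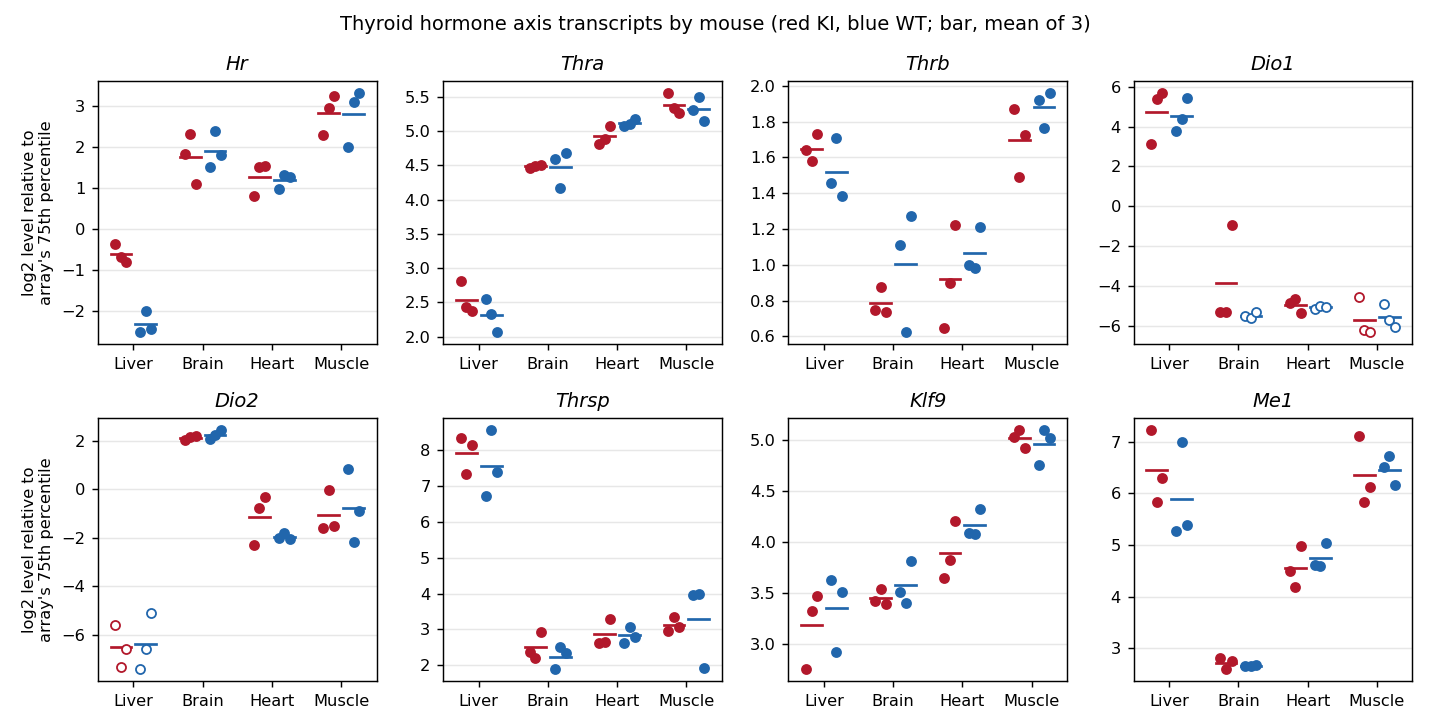
Level of each of the 8 genes (log2 units from the array's 75th percentile; each panel has its own scale) in every mouse, by tissue, with KI mice A, B and C in red and WT mice D, E and F in blue from left to right, and a bar for the mean of 3; open circles mark groups in which the probe was not well above background on all 3 arrays. Hr separates the genotypes in liver, from -0.81 to -0.36 in KI and from -2.52 to -1.99 in WT, and in the other tissues its genotypes overlap.

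The tissue pattern of the 8 genes in WT mice was tested with 6 tissue pairs per gene, and 35 of 48 tests passed (limma, p-values adjusted by the Benjamini-Hochberg method over 17098 genes). The background was high: 79.4% of all genes passed between liver and brain, 68.7% between liver and heart, 73.3% between liver and muscle, 74.2% between brain and heart, 77.3% between brain and muscle, and 54.4% between heart and muscle. RNA of heart and muscle was extracted with another kit than that of liver and brain, and all livers lay on 1 slide and all muscles on another, so that tissue cannot be told apart from these steps.

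Hr and Thra shared liver as their lowest tissue. Hr was 2.80 ± 0.71 in muscle, 1.90 ± 0.45 in brain, 1.19 ± 0.18 in heart and -2.31 ± 0.28 in liver (SD, n = 3 each). Muscle exceeded brain by 0.90 (limma adjusted p = 0.0328; 0.135 with quantile normalization, 0.0653 with normexp, 0.0758 without WT mouse E and 0.298 without WT mouse F), brain and heart did not differ beyond their spread (0.72, limma adjusted p = 0.0779; 0.0235 with the mouse as a block, 0.0413 with quantile normalization and 0.0342 without WT mouse D), and heart exceeded liver by 3.50 or 11.3-fold (limma adjusted p = 4.63e-06). In KI mice the liver level of -0.61 remained below the KI heart mean of 1.28. Thra was 5.32 in muscle, 5.12 in heart, 4.48 in brain and 2.31 in liver. Muscle and heart did not differ beyond their spread, though in KI mice muscle exceeded heart (limma adjusted p = 0.0357). Brain lay below heart by 0.63 (limma adjusted p = 0.00648, but 0.608 with quantile normalization and 0.0646 without WT mouse E), and liver below brain by 2.17 (limma adjusted p = 5.86e-07). With quantile normalization brain lay above muscle by 0.07 for Thra, and the second Thra probe likewise placed brain above muscle, by 0.22, and above heart, by 0.01, so the order of brain for Thra depends on the scaling and the probe.

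Klf9 was 4.96 in muscle, 4.16 in heart, 3.57 in brain and 3.35 in liver. Brain and liver did not differ beyond their spread (limma adjusted p = 0.318), while heart exceeded brain by 0.59 (limma adjusted p = 0.0199) and muscle exceeded heart by 0.80 (limma adjusted p = 0.00666). This order depended on the scaling: with quantile normalization liver lay below brain by 0.86 (limma adjusted p = 0.00136), and the steps from brain to heart (0.224) and from heart to muscle (0.0618) did not pass. In the score table liver and brain also differed (limma adjusted p = 0.0223), and the step from brain to heart did not pass without WT mouse D (0.0866), without WT mouse F (0.0835) or in KI mice (0.0835). Thrb was 1.88 in muscle, 1.52 in liver, 1.06 in heart and 1.00 in brain, and neither muscle and liver nor heart and brain differed beyond their spread. Muscle did exceed liver on this probe in the score table (limma adjusted p = 0.0237) and without WT mouse E (0.0188). Liver exceeded heart by 0.45 on its brighter probe (limma adjusted p = 0.0386), a call that was lost with quantile normalization (0.110), in the score table (0.118), without the filter on dim probes (0.0555), with the mouse as a block (0.0505), and without WT mouse D (0.196), E (0.0985) or F (0.0568). On the dimmer probe liver exceeded muscle by 0.47 (limma adjusted p = 0.0189) and brain exceeded heart by 0.46 (limma adjusted p = 0.0192), so the order depends on the probe.

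The deiodinase genes were highest in different tissues. Dio1 was 4.55 ± 0.84 in liver and between -5.57 and -5.07 in the other tissues, where its brightest probe was well above background on 2 of 3 brain, 2 of 3 heart and 0 of 3 muscle arrays. On that probe the liver level was at least 592-fold that of muscle, with each muscle value replaced by that array's lowest detected level where this was higher (limma adjusted p = 2.81e-09). The gap differed by probe: the other 2 averaged -0.07 and 2.39 in WT liver against -3.81 and -5.61 in WT muscle, where the first of them was well above background on 2 of 3 arrays and the second on none. Dio2 was 2.25 ± 0.19 in brain, -0.76 ± 1.52 in muscle, -1.96 ± 0.11 in heart and -6.36 ± 1.17 in liver, where 1 of 3 arrays was well above background. Brain exceeded muscle by 3.00 (limma adjusted p = 0.00258; 0.0521 without WT mouse E), and muscle and heart did not differ beyond their spread.

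The lipogenic target genes differed from each other in muscle. Thrsp was 7.56 in liver and 3.30, 2.84 and 2.24 in muscle, heart and brain, of which no pair differed beyond the spread. Without WT mouse F, however, muscle exceeded brain in Thrsp (limma adjusted p = 0.0342). Liver exceeded muscle in Thrsp by 4.27 or 19.2-fold (limma adjusted p = 5.07e-05). Me1 was 6.46 in muscle and 5.89 in liver, which did not differ beyond their spread (limma adjusted p = 0.199), then 4.75 in heart and 2.66 in brain. Liver exceeded heart in Me1 by 1.14 (limma adjusted p = 0.0225), which did not pass with quantile normalization (0.104), in the score table (0.1002), without WT mouse D (0.0556) or without WT mouse E (0.0691, with a difference of 0.50). Without mouse E, muscle exceeded liver in Me1 (limma adjusted p = 0.00515).

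Of the 8 genes, 6 have an entry in the RefSeq promoter sequences of GRCm38.p6, which run from 250 bases before to 50 after an annotated start; Hr and Thra have none there. The entries of Dio1 and Thrsp are shown because these genes had the largest excess of liver over every other tissue among the 8, and the upstream entry of Thrb because it alone holds the receptor recognition element AGGTCA, printed in capitals. The other bases are in lower case and each sequence reads 5' to 3' on the gene's strand: Thrsp at chr7:97417501-97417800 (minus strand), Dio1 at chr4:107307119-107307418 (minus strand) and Thrb at chr14:17660710-17661009 (plus strand).
Thrsp: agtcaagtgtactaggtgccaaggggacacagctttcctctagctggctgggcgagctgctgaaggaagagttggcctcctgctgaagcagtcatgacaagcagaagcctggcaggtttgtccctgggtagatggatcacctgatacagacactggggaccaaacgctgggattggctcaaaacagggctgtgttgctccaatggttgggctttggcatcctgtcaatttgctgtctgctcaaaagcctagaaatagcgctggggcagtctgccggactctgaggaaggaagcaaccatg
Dio1: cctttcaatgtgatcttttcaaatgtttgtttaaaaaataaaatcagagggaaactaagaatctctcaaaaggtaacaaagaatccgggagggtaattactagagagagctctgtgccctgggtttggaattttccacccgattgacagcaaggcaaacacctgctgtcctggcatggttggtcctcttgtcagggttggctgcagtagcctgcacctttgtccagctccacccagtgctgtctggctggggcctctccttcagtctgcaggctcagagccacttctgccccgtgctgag
Thrb: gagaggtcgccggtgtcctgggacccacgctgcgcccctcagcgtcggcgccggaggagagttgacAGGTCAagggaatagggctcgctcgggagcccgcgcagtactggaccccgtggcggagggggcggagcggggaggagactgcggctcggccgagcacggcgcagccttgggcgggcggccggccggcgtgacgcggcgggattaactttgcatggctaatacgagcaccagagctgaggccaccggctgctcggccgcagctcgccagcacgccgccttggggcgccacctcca

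AGGTCA was searched on both strands. It was found in 1 of the 8 entries of the 6 genes (Thrb and Me1 have 2 each), at position -184 from the start in Thrb, and in 16.3% of all 32851 promoters in the table. Its direct repeat with 4 free bases between the copies, the spacing known for receptor pairs with RXR, was found in no entry of the 6 genes and in 0.0152% of all promoters. CCAAT, on either strand, was found in Thrsp at positions -79 and -52, in Klf9 and in 1 of the 2 Me1 entries, and in 37.4% of all promoters. These are matches of letters in a window of 300 bases and not measured binding sites.

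Hr in liver stood at -0.36, -0.68 and -0.81 in KI mice A, B and C and at -2.52, -1.99 and -2.43 in WT mice D, E and F. The lowest KI liver was above the highest WT liver. The means were -0.61 ± 0.23 and -2.31 ± 0.28 (SD, n = 3 each), a difference of 1.70 on the log2 scale or 3.24-fold. Hr has 1 probe (A_55_P1958532), well above background on all 6 liver arrays, so no second probe could be set beside it. Leaving out each mouse in turn gave differences from 1.57 to 1.86. The liver of mouse C, which held muscle transcripts, had the lowest Hr level of the KI livers, and without it the difference was 1.79. All 4 macrophage markers (Adgre1, Cd68, Lyz2 and Clec4f) were also higher in KI liver without overlap, against 12.2% of all genes measured there. Their summed signals were 26.4 to 29.4 times the 75th percentile in KI and 17.3 to 23.3 in WT. The part of macrophages in the Hr value was not tested.

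None of the other 6 genes measured in liver separated the genotypes. Non-overlap was found in 1 of 7 of these genes, Hr, against 19.7% of all 14092 genes measured in liver (12.2% with KI higher and 7.5% with KI lower), and nothing is read from that count because liver values chose the genes. In the fit over all genes in liver 0% passed after adjustment and 11.7% had an unadjusted limma p under 0.05, given only as background. The differences of the 6 ran from -0.17 for Klf9 to 0.57 for Me1, and the median over the 7 was 0.22, against 0.04 over all measured genes, whose lower and upper quartiles were -0.16 and 0.22. The eighth gene, Dio2, was well above background in no KI liver and in 1 of 3 WT livers.

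Me1, which encodes the malic enzyme that supplies NADPH for fat synthesis, was 7.24, 5.83 and 6.30 in KI livers A, B and C and 5.26, 7.005 and 5.39 in WT livers D, E and F. The KI mean was higher by 0.57, but WT mouse E lay above KI mice B and C. The other 2 probes of Me1 gave differences of 0.38 and 0.40 with the same overlap. Without mouse E the Me1 difference was 1.13 and the genotypes did not overlap. Without KI mouse A it was 0.18.

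Thrsp, a regulator of fat synthesis, was 8.33, 7.32 and 8.15 in KI livers A, B and C and 6.73, 8.57 and 7.39 in WT livers D, E and F. The difference was 0.37, with WT mouse E highest, followed by KI mice A and C. Without mouse E it was 0.87 and without mouse D it was -0.05.

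The 10 measured lipogenic genes, among them Fasn and Acaca of fatty acid synthesis, were each highest in KI mouse A (5 genes) or WT mouse E (5 genes). Their mean deviation from the 6-liver mean of each gene was 0.96 in A and 0.81 in E, and between -0.76 and -0.05 in the other 4 livers. Of the 10, 8 had a higher KI mean, against 55.9% of all genes measured in liver, with a median difference of 0.42. In none did the genotypes separate, against 19.7% of all genes. The ends of the list were Pnpla3, a lipid droplet protein gene, at 1.30 and the elongase Elovl6 at 0.83, against Srebf1, the transcription factor of the pathway, at -0.27. Me1 was likewise highest in A and E, while Thrsp was high in C as well. Within the KI livers Hr was highest in A and lowest in C, and Me1 was highest in A and lowest in B. With 3 livers per genotype and Hr in 2 separate clusters, a correlation with Hr was not tested.

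**Figure D2:**
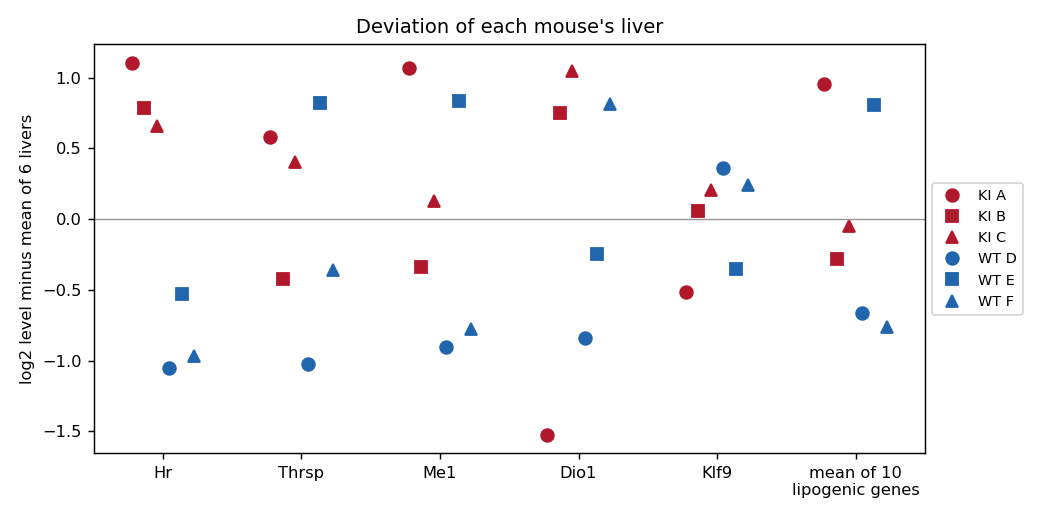
Log2 level in each liver minus the mean of the 6 livers for Hr, Thrsp, Me1, Dio1 and Klf9 and for the mean of 10 lipogenic genes; KI mice are red, WT mice blue, and the symbol shape tells mice of a genotype apart. Hr splits by genotype, while the lipogenic mean is high in KI mouse A (0.96) and WT mouse E (0.81), and Dio1 is lowest in KI mouse A and WT mouse D.

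Dio1, the hepatic deiodinase, was 3.12, 5.39 and 5.69 in KI livers A, B and C and 3.80, 4.40 and 5.46 in WT livers D, E and F. The spread within each genotype (SD 1.41 and 0.84) exceeded the difference of 0.18. Leaving out each mouse in turn gave differences from -0.30 (without KI mouse C) to 0.99 (without KI mouse A). The other 2 Dio1 probes gave 0.03 and -0.13, and on these too mouse A was the lowest of the 6 livers. Mouse A had the highest hepatic Hr and the lowest Dio1, while WT mouse D had the lowest Hr and the next lowest Dio1 on the brightest probe.

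Klf9 was 2.75, 3.32 and 3.47 in KI livers and 3.63, 2.91 and 3.51 in WT livers, a difference of -0.17 with overlap. Its level was lowest in mouse A, then in mouse E. Without mouse E the KI livers all lay below the WT livers (-0.39), without mouse D the difference was -0.03, and without mouse A it was 0.05.

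The receptor genes were close to even. Thra was 2.81, 2.43 and 2.38 in KI and 2.54, 2.34 and 2.06 in WT livers, a difference of 0.22. Thrb was 1.64, 1.58 and 1.73 in KI and 1.46, 1.71 and 1.39 in WT livers, a difference of 0.13. The 2 Thrb probes disagreed, however: the dimmer one was -0.13, -0.19 and -0.12 in KI and 0.43, 0.09 and 0.09 in WT livers, a difference of -0.35 with every KI liver below every WT liver. The dimmer Thra probe gave 0.32 with overlap.

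Among 98 listed pathway genes beside the 8, 80 were measured in liver. In 4 of them KI livers lay above all WT livers and in 7 below, which is 13.8% of the 80 against 19.7% of all genes. The 4 include Cga, which counted as measured through KI mice alone, and the 7 include Slco1a1, through WT mice alone. Nothing is therefore read from these counts. The median difference was 0.03.

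Of 9 thyroid hormone transporter genes, all measured, 7 had a lower KI mean and 3 separated the genotypes, all lower in KI. Over all genes in liver, 55.9% had a higher KI mean and 7.5% were lower in KI without overlap. The counts include Slco1a1 and Slc10a1, whose limits are given below, and nothing is read from them. Slco1a1, which encodes an organic anion transporter, was -5.63, -4.63 and -4.94 in KI and -3.74, -3.78 and -3.92 in WT livers, a difference of -1.26, with only 1 of 3 KI values well above background, so that it counted as measured through WT mice alone. Slco1a4, which encodes a related transporter, was 2.96, 3.63 and 3.24 in KI and 4.28, 3.87 and 3.93 in WT livers, a difference of -0.75. Slc3a2, the heavy chain shared by amino acid transporters, differed by -0.29. The other end was Slc7a8 at 0.49, with overlap. Slco1c1, a thyroxine transporter gene, differed by -0.34 with overlap. The Slc10a1 probe was bright in all 4 tissues and is not taken as a measure of that liver transporter, though it is 1 of the 9.

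Of 5 measured genes for binding and inactivation of the hormone, none separated the genotypes, against 19.7% of all genes in liver. They ran from Crym, a cytosolic T3-binding protein, at -0.38 and Serpina7, thyroxine-binding globulin, at -0.11 to Sult1a1 at 0.19 and the plasma carrier Ttr at 0.33. Dio3 was well above background in 1 of 6 livers. Likewise none of 13 RXR partners and coregulators separated, from Rxra at -0.48 and the corepressor Ncor1 at -0.27 to the coactivator Ncoa3 at 0.23 and Rxrg at 0.31.

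Of 14 further hepatic T3 targets, all measured, 1 separated the genotypes, against 19.7% of all genes in liver. The median difference was 0.05, and Fasn, Acaca and Acly are also among the lipogenic genes above. Fgf21, a hepatic hormone gene, was -0.19, -0.14 and -0.09 in KI and -1.67, -0.49 and -0.30 in WT livers, a difference of 0.68 with WT mouse D far below the other 5 livers. Acly was next at 0.52, with overlap, and the lowest were the gluconeogenic genes Pck1 at -0.61 and G6pc at -0.10, with overlap.

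T3 targets known from other tissues gave mixed values in liver, where 19.7% of all genes separated the genotypes. Among brain targets, 10 of 11 were measured, with Mbp (0.75) higher and Nrgn (-0.44) lower in KI without overlap. The remaining extremes of that list were Rasd2 at 0.32 and Bdnf at -0.36, with overlap. Of 7 heart targets raised by T3, 5 were measured and Adrb1, a beta-adrenergic receptor gene, was higher by 0.73 without overlap. Slc2a4, on the heart and muscle lists, was at 0.97 with overlap, as was Ucp3 on the muscle list at 0.31. The lower ends were the calcium pump Atp2a2 at -0.38 and Hcn2 at -0.10 on the heart list, and the calcium pump Atp2a1 at -0.28 and Ppargc1a at -0.18 on the muscle list, all with overlap. Of 10 thyroid gland and pituitary genes, Cga alone was measured in liver, at -2.46, -1.81 and -2.45 in KI and -3.67, -4.51 and -2.64 in WT, a difference of 1.37 without overlap. Only 2 of 3 WT values were well above background, so Cga counted as measured through KI mice alone.

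Clock and glucocorticoid target genes, many of which vary over the day, were set beside these. Of 9 clock output genes, all measured, 3 were lower in KI without overlap, against 7.5% of all genes in liver. They were Per1 (-0.67), Nr1d1 (-0.50) and Nr1d2 (-0.38). Dbp differed by -0.14 and Ciart by -1.17 with overlap, and Arntl was at 0.47 and Per3 at 0.39, also with overlap. Nr1d1 lies opposite the 3' part of Thra on the other strand, and in liver it read 1.68, 2.14 and 2.12 for KI mice A, B and C against 2.47, 2.54 and 2.44 for WT mice D, E and F. Of 6 glucocorticoid targets, Per1 alone separated, which is also on the clock list, against 19.7% of all genes in liver. Tat was at -0.46, Fkbp5 at -0.05 and Sgk1 at 0.30. The part of the hour of collection in the liver values was not tested.

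**Figure D3:**
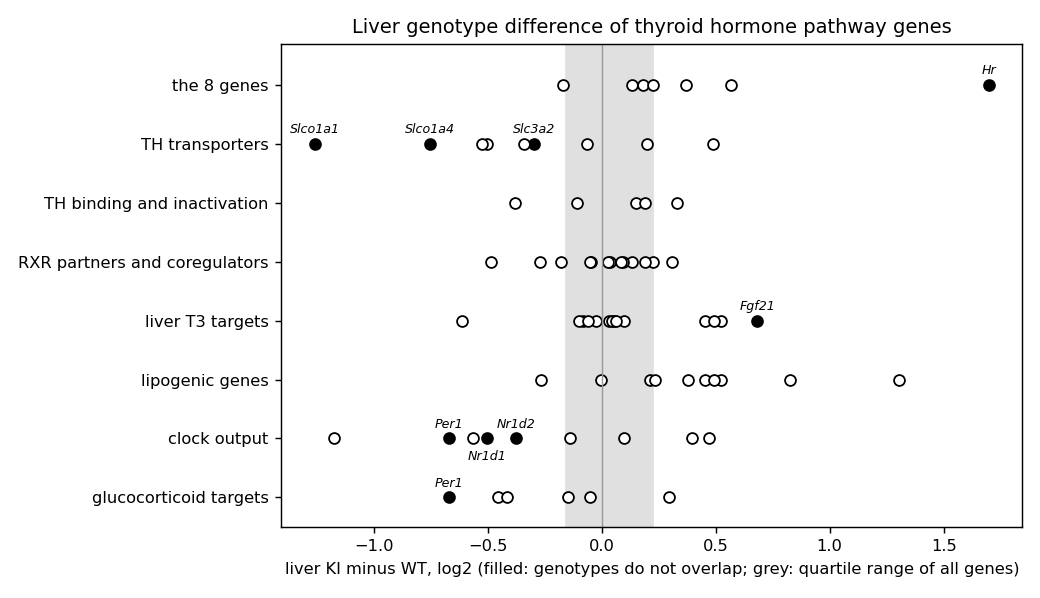
Liver difference of KI minus WT (log2) for each measured gene of 8 lists, 1 point per gene; filled points are genes whose genotypes do not overlap, and the grey band is the quartile range of all 14092 genes (-0.16 to 0.22). Hr lies at 1.70, apart from the other 6 measured genes of its row, and the 3 separated transporter genes lie to the left.

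Outside liver the genotype differences of the 8 genes could be tested. With limma and the same adjustment, over all genes measured in a tissue, 0 of 16073 genes passed in brain, 0 of 14931 in heart and 0 of 13516 in muscle (0% in each). At an unadjusted p under 0.05 there were 127, 245 and 115 genes, or 0.79%, 1.64% and 0.851%, none of them among the 8. With 3 mice against 3 an exact permutation test cannot go below p = 0.1, so no single-gene test of that kind could pass.

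Hr did not differ between genotypes beyond its spread in these tissues. In brain it was 1.84, 2.33 and 1.10 in KI and 1.51, 2.40 and 1.80 in WT, a difference of -0.15 (95% interval -0.99 to 0.70, limma adjusted p = 1.00). In heart it was 0.81, 1.51 and 1.53 in KI and 0.97, 1.32 and 1.27 in WT, a difference of 0.10 (interval -0.45 to 0.64, limma adjusted p = 0.973). Within slides it was 0.33 and -0.39 in brain and 0.01 and 0.26 in heart, while all muscles lay on 1 slide. In muscle it was 2.30, 2.94 and 3.23 in KI and 1.99, 3.09 and 3.32 in WT, a difference of 0.02 (interval -0.93 to 0.98, limma adjusted p = 1.00). When brain, heart and muscle were averaged within each mouse the difference was -0.01 (interval -0.55 to 0.53, limma adjusted p = 1.00 over 12999 genes, of which 0, or 0%, passed and 132, or 1.02%, had an unadjusted p under 0.05). Whether the Hr difference itself varied between liver and the other tissues was not tested, since liver values chose the gene.

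**Figure D4:**
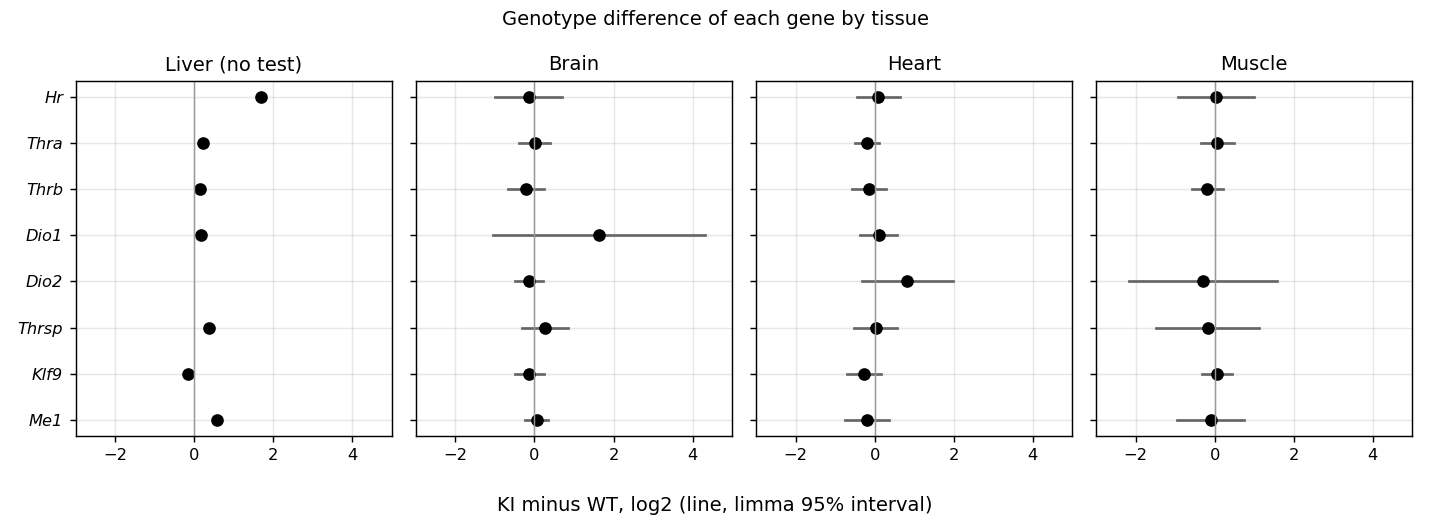
Difference of KI minus WT (log2) for each measured gene in each tissue, as points with limma 95% intervals (lines) in brain, heart and muscle and without intervals in liver. Intervals include 0 for each gene tested in brain, heart and muscle, and the widest is that of Dio1 in brain (-1.04 to 4.32).

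The receptor genes passed no test outside liver. Thra in heart was 4.81, 4.89 and 5.07 in KI and 5.08, 5.10 and 5.17 in WT, a difference of -0.19 (interval -0.49 to 0.11, limma adjusted p = 0.971). Among the brightest probes of the 8 genes it was the only one measured outside liver whose genotypes did not overlap, in a tissue where 5.02% of all genes did not overlap (3.22% with KI lower), and its second probe gave 0.01. Within the slide that held 2 hearts of each genotype the difference was -0.24, and within the other, with 1 of each, -0.10. Thra differed by 0.0022 in brain and 0.07 in muscle. Thrb had differences of -0.22 (brain), -0.14 (heart) and -0.19 (muscle), with a mean over the 3 tissues of -0.18 (interval -0.45 to 0.09, limma adjusted p = 1.00). Its dimmer probe differed by -0.28 in brain and -0.03 in heart, and read 1.96 in the muscle of KI mouse B and between -0.58 and -0.08 in the other 5 muscles, while its brighter probe was lowest in that muscle.

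Dio1 in brain was -5.30 and -5.33 in KI mice A and B, -0.92 in KI mouse C, and -5.53, -5.63 and -5.30 in WT mice. Only 2 of 3 WT values were well above background, so it counted as measured in brain through KI mice alone. The difference of 1.64 (interval -1.04 to 4.32, limma adjusted p = 1.00) rested on mouse C, and without it the difference was 0.17. In the same brain the 8 hepatocyte markers summed to 293.4 times the 75th percentile, against 0.21 to 2.53 in the other 5 brains. The Dio1 probe that was second brightest over all 24 arrays differed by 0.56 in brain and 0.34 in heart, and the remaining probe was measured in neither. In heart the brightest lay near -5 in both genotypes, with 2 of 3 WT values well above background, so it too counted as measured through KI mice alone. In muscle the brightest Dio1 probe did not exceed background clearly in any of 6 samples. The second brightest read -4.77, -3.97 and -4.42 in KI and -3.87, -3.64 and -3.92 in WT muscles, well above background in 1 KI and 2 WT samples, a difference of -0.57 without overlap that was not tested because the probe missed the filter.

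Dio2, the deiodinase that makes T3 locally in brain, muscle and brown fat, was even in brain, with 2.01, 2.14 and 2.19 in KI and 2.07, 2.22 and 2.45 in WT (difference -0.13, interval -0.48 to 0.21, limma adjusted p = 1.00). In heart it was -2.32, -0.76 and -0.30 in KI and -2.00, -1.83 and -2.04 in WT. KI mice B and C lay above all WT hearts and KI mouse A below them, and the difference of 0.83 was not beyond the spread (interval -0.32 to 1.97, limma adjusted p = 0.971). It was 0.37 within the slide of mice A, B, D and E and 1.73 within the slide of mice C and F, a split that in heart is also the age of the mice. Leaving out KI mouse A gave 1.42 and leaving out KI mouse C gave 0.42.

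All 5 white adipocyte markers measured in heart had a higher KI mean, against 38.2% of all genes, with signals, summed over the 6 listed, of 5.79, 42.1 and 7.14 in KI and 4.92, 10.6 and 1.99 in WT hearts, and Lep did not exceed background clearly in any heart. Adipoq was highest in KI mouse B at 1.38, and Ucp1, the thermogenic protein of brown fat, was well above background in KI mouse B alone at -1.36. In the heart with the highest Dio2, that of KI mouse C, Adipoq was -1.23 and Ucp1, not well above background, -7.75. The 3 brown adipocyte markers, of which 1 counted as measured in heart, summed to 24.3, 19.7 and 32.8 in KI hearts A, B and C. In WT hearts D, E and F they summed to 26.6, 26.1 and 34.4. The part of fat in the heart Dio2 values was not tested.

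In muscle Dio2 varied widely, from -1.60 to -0.03 in KI and from -2.20 to 0.83 in WT (difference -0.30, interval -2.17 to 1.58, limma adjusted p = 1.00). The 2 highest values, 0.83 in WT mouse D and -0.03 in KI mouse B, were those of the 2 muscles in which the 3 brown adipocyte markers summed to 24.6 and 25.1, against 0.33 to 2.33 in the other 4. Ucp1 was 2.59 and 2.91 in these and at most -1.89 in the others. Of the 3 brown adipocyte markers, 1 counted as measured in muscle. The part of brown fat in the muscle Dio2 values was not tested.

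**Figure D5:**
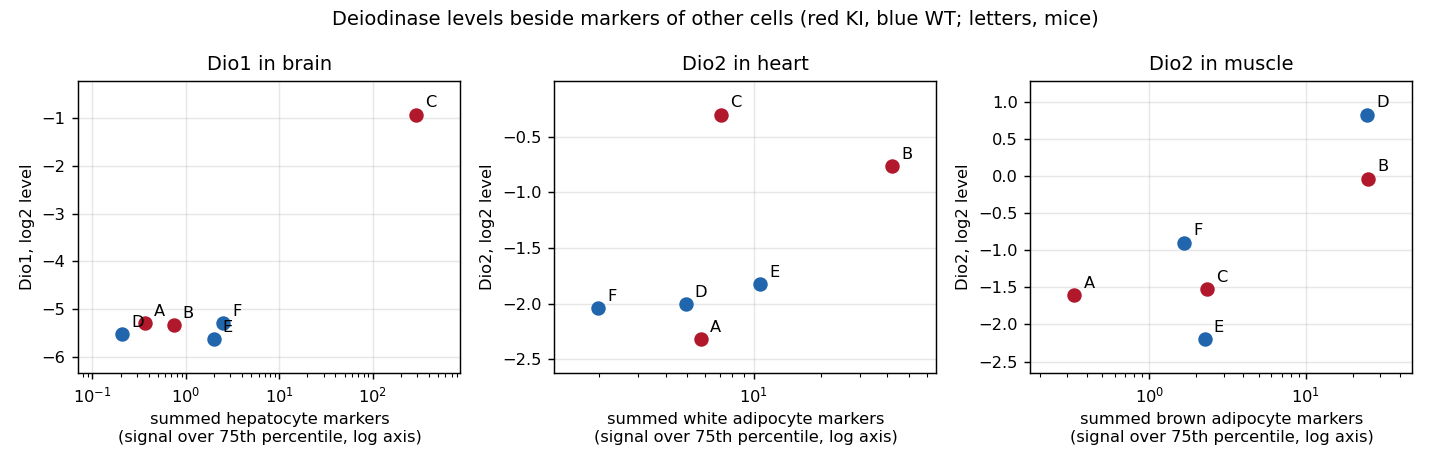
Log2 level of Dio1 in brain, Dio2 in heart and Dio2 in muscle (vertical axes) against the summed signal of markers of another cell type on the same array (horizontal log axes), 1 point per mouse, KI red and WT blue, with the mouse's letter. The brain of mouse C stands apart on both axes, and the muscles of mice B and D are high on both. The heart of mouse C is highest in Dio2, with a white adipocyte sum (7.14) between those of other hearts.

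The 3 target genes showed no genotype difference beyond their spread outside liver. Klf9 differed by -0.13 in brain, -0.27 in heart (interval -0.70 to 0.15, limma adjusted p = 0.971) and 0.06 in muscle. Me1 differed by 0.06, -0.19 and -0.11 (by -0.05, -0.10 and -0.30 and by 0.09, -0.12 and -0.19 on its other 2 probes) and Thrsp by 0.27, 0.02 and -0.18 in the same order. In muscle Thrsp was 2.95, 3.34 and 3.05 in KI mice A, B and C and 3.97, 3.99 and 1.94 in WT mice D, E and F. The summed white adipocyte markers were 107.1, 261.7 and 239.2 in the KI muscles and 318.7, 172.7 and 71.1 in the WT muscles, in the same order. The part of fat in the muscle Thrsp values was not tested. Me1 in muscle was highest in KI mouse A at 7.12, the mouse that also had the highest Me1 in liver.

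None of the listed pathway genes passed the test outside liver, with 83 of them measured in brain, 77 in heart and 75 in muscle. The unadjusted limma p was under 0.05 for 0, 1 and 2 of them, against 0.79%, 1.64% and 0.851% of all genes in these tissues. Non-overlapping genotypes were found for 3, 3 and 4 of them, or 3.61%, 3.90% and 5.33%, against 2.86%, 5.02% and 3.54% of all genes in the same tissues. The cardiac T3 targets Myh6 and Myh7, the alpha and beta myosin heavy chains, differed by 0.06 and -0.08 in heart. Slco1c1 differed by -0.07 in brain, Crym by -0.17, Ttr by -0.02 and Dio3 by 0.10, all with overlap. The separation of Slco1a4 seen in liver (-0.75) stood beside -0.03 in brain, and that of Nr1d1 (-0.50) beside -0.21 in brain, -0.08 in heart and 0.01 in muscle.

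Genes whose pattern over all 24 arrays was most like that of Hr were Map3k10 (Pearson r = 0.96), Napepld (0.95), Plpp7 (0.94), Epb41l2 (0.94) and Agpat1 (0.94), of 17176 genes compared. The arrays share tissues and mice, and the tissue pattern they describe is low in liver and high in muscle. The 24 arrays include the KI and WT livers, so the ranking also favours genes that are higher in KI liver. Nothing is therefore read from the liver means of these 5 genes, given next. In KI against WT liver these 5 had means of -4.04 against -4.18 for Map3k10, -1.63 against -2.04 for Napepld, -2.60 against -3.23 for Plpp7, -4.16 against -5.02 for Epb41l2 and 0.17 against -0.02 for Agpat1. Of the other members, Thra was most like Hr (r = 0.89, rank 263), followed by Dio2 (0.76) and Klf9 (0.67). Thrb (-0.06) and Me1 (-0.20) lay near 0, and Thrsp (-0.82) and Dio1 (-0.90), the liver genes, ran opposite to Hr.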

How the data were processed

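Per the labels, each tissue sample gave total RNA for 1 single-colour (Cy3) array. The authors read spot intensity values with Agilent Feature Extraction, whose version was 12.0.3.1. In the deposited files the processed intensity was already corrected for background within the array but not scaled between arrays, and the deposited median spot and background intensities served for an alternative correction. A deposited score table with 33912 rows held z-scores of the log signal within each array (largest difference 0.005 from the same score computed here) and served as an alternative only, its scale being that of a z-score and not log2.

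Here control spots and outlier spots were left out, spots of a probe were averaged on the log2 scale, and the 75th percentile of each array (a signal of 312.5 to 2519.4) was subtracted. Between 49.4% and 68.4% of probes were well above background, and no spot was saturated; with 3 arrays per group, the number of arrays limits the precision. Probes were named through accessions and a RefSeq gene table of GRCm38.p6, used for names only, since the probes were designed on an older build. A gene was represented by its brightest probe on average, and other probes are given where named. Genotypes were compared within each tissue with two-sided moderated tests in limma 3.58.1 (R 4.3.3), adjusted over all measured genes by the Benjamini-Hochberg method at 0.05; no liver value of a named gene was tested between genotypes, and the liver fit gave only the share over all genes. Levels are on the log2 scale computed here from the deposited intensity. The script was tested on simulated data. Within a tissue the samples are separate mice, and each mouse gave all 4 tissues.

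The 8 genes, the gene lists and the rule for naming genes were chosen with earlier results of these data known. Named were the 8 genes with every probe, the 2 highest and 2 lowest liver differences of each pathway list, a fixed set of further pathway and marker genes, and the 5 genes most like Hr over the 24 arrays. Some genes that this rule names are not reported here. Alternatives covered the scaling, the background correction, the score table, a second probe, the filter on dim probes, age, slide, a fit over all arrays, the mouse as a block, and leaving out each mouse.

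Arrays of the same number came from 1 mouse, so numbers pair tissues. Deviations from group means over 12219 genes had a mean correlation of 0.0189 for tissues of the same mouse and -0.00842 for tissues of different mice with the same genotype. KI and WT have no mouse in common. The study describes its controls as WT littermates, but the sample titles name no litter, so the genotypes were compared without pairs.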

Additional observations from a re-analysis of the deposited data

How the results depend on the processing

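In liver the number of the 7 genes whose genotypes did not overlap was 1 under the other scalings and the score table, 2 with the second brightest probes (Hr, and Thrb at -0.35, lower in KI), and 1 to 4 when a mouse was left out: without WT mouse D Thra also separated, and without WT mouse E Thrb, Me1 and Klf9 did. The Hr difference in liver was 1.72 with quantile normalization and 1.42 with normexp background correction, and in the score table, on its own scale, 0.397.

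No gene passed in brain, heart, muscle or their mean under the other settings, except 0 to 1 in heart (Olfr862, without KI mouse C) and 0 to 4 in muscle (Aste1, Ttc36, Vmn2r5 and Zic4, without KI mouse A) when a mouse was left out. Over all settings, unadjusted counts ranged between 90 and 418 (brain), 143 and 953 (heart), 63 and 415 (muscle), and 118 and 662 (mean).

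No member passed under any alternative, and signs of differences near 0 turned. With the second probe Thra read -0.0164 (brain), 0.00595 (heart) and -0.319 (muscle), and Thrb 0.664 (muscle) and 0.116 (mean of 3 tissues). Hr was -0.0369 in muscle with normexp, and in the mean of 3 tissues 0.00987 with quantile normalization and 0.00222 in the score table. When a mouse was left out, the Hr difference lay between -0.431 and 0.179 for brain, between -0.0287 and 0.334 for heart, between -0.379 and 0.287 for muscle, and between -0.244 and 0.144 for the mean. Thra ran from -0.152 to 0.103 in brain and -0.0188 to 0.155 in muscle, Dio1 from -0.0438 to 0.303 in heart, and Klf9 from -0.0419 to 0.127 in muscle. Dio2 ran from -1.02 to 0.495 in muscle and -0.103 to 0.439 in the mean, Thrsp from -0.195 to 0.146 in heart, -0.864 to 0.162 in muscle and -0.181 to 0.235 in the mean, and Me1 from -0.487 to 0.160 in muscle and -0.210 to 0.0900 in the mean. The cause was not tested.

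Of the 48 tissue tests in WT mice, 29 to 37 passed under the alternatives that kept all mice and 31 to 32 without one. Quantile normalization moved the median of all genes by -0.26 between liver and brain and by 0.32 between brain and muscle. With the mouse as a replicate block 35 passed, 34 of them as before, and in the fit over 24 arrays with that block no genotype call changed (0 genes passed in brain, heart and muscle). Of the 5 genes most like Hr, 1 stayed with Spearman correlation and 2 with quantile normalization. Dim probes limit Dio1 outside liver and Dio2 in liver, where levels lie near background.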
